A study of Mus musculus with 13 samples.

Results

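The genes described here encode the transcription factors of the MYC, MAX and MXD network. They were taken by gene symbol from a list of 9 (Myc, Mycn, Max, Mxd1, Mxd3, Mxd4, Mxi1, Mnt and Mlx), each represented by the probe set that names it alone and has the highest mean over the arrays. A probe set of that kind was found for 8 of the 9, out of 17097 genes that could be named in this way. The expression of Max was not analysed here, because none of the probe sets named in the annotation table is its own.

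The arrays (Affymetrix HT MG-430 PM, 13 in all) measured RNA of C57BL/6 mice of the genotype Lgr5-EGFP-ires-CreERT2, in which the Lgr5 gene drives the green fluorescent protein GFP, and every group carries this allele. There were 3 arrays of hair follicle cells, which were sorted and whose titles give a dim GFP signal, 4 of sorted intestinal cells with a bright signal (GFPbright, Lgr5 stem cells), 3 of sorted intestinal cells with a dim signal (GFPdim, their close descendants) and 3 of villus cells, the differentiated epithelium. By the series' design text a sort combined 3 mice. Titles of the arrays other than villus hold a number that was read as the code of a sort, which they do not state. No age was given in the labels. The labelled Lgr5 level was counted as going against the title or source on 9 of the 13 samples, and the titles and source names were used. Among the 9 are the villus arrays, labelled high, whose titles state no level, and the hair follicle arrays, also labelled high. Whether villus cells passed a sorting gate is not settled by the sources used here. In these bulk samples, fewer cells of a type and less RNA per cell cannot be told apart.

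MYC and MYCN are activating transcription factors that bind DNA as dimers with MAX, at a short element called the E-box, and are known for driving growth, ribosome production and cell division. MXD1, MXD3, MXD4, MXI1 and MNT compete with them for MAX and silence the same kind of element through the SIN3 corepressor, and MXD proteins are commonly found in cells that leave the cell cycle. MLX takes the place of MAX beside some of the repressors (MXD1, MXD4 and MNT) and beside MLXIP and MLXIPL, 2 factors that respond to glucose. In the intestinal crypt, Myc is a target of Wnt signalling.

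The E-box itself, CACGTG, which reads the same on both strands, was looked for in the promoters of the network's own genes, because its products bind this element. The promoters were windows of 300 bases, 250 before and 50 after a gene's start, from RefSeq on GRCm38.p6. A gene can have several starts and windows. The start of a window can lie inside the span given for the gene, as for Max, Mnt and Mlx. For 8 of the 9 listed genes 10 windows were found (3 of them for Mxi1), with Myc the one without, and 4 of these 10 windows held an E-box, against 7.15% of all 32851 windows. The core of the binding sequence of TCF/LEF factors, the mediators of Wnt signalling, was searched on both strands as CTTTGA and was held by 16% of all windows and by 1 of the 10, that of Mycn. The stretches that hold a match are given with the strand of the gene, and capitals mark the matched letters, which in Mycn are the reverse complement of the core. Distances are counted from the first matched letter, so the match of Max runs past the start.
Max, chr12:76962234-76962263, minus strand, E-box 3 bases before the start: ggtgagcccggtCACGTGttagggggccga
Mxd4, chr5:34187912-34187941, minus strand, E-box 219 bases before the start: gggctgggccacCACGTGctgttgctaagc
Mnt, chr11:74830789-74830818, plus strand, E-box 123 bases before the start: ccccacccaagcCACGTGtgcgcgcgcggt
Mlx, chr11:101087238-101087267, plus strand, E-box 40 bases before the start: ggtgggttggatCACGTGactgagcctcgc
Mycn, chr12:12941832-12941861, minus strand, TCF/LEF core 13 bases before the start: atcccccgagctTCAAAGcgcagccagtga
No match was found in the windows of Mxd1, Mxd3 and Mxi1. A match describes the letters and is not evidence of binding.

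Arrays of the same group had correlations of 0.978 to 0.994 between their log2 values, taken over genes, which are no independent replicates, and no pair of arrays was identical. Values are intensities on a linear scale, and precision is limited by how few arrays each group has. The receptor level, an intensity of 7.9, stands for background and is the 95th percentile of 86 probe sets of sensory receptors (olfactory, vomeronasal and taste). All 8 genes were above it in the mean of every group, so none of their folds is given as a bound. Mycn on the villus arrays (8.2 to 9.3) and Myc on the lowest of them (8.1) were close to it. Folds of these 2 genes against villus can therefore be understated. Lgr5, the check of the labels, was at 479, 539.7 and 687 in hair follicle cells, 793, 533, 577 and 697 in GFPbright, 12.6, 66.1 and 14 in GFPdim and 6.8, 4.8 and 6.6 in villus. The intestinal arrays followed their titles. The hair follicle arrays, with GFPdim in their titles, were 24.8-fold over the intestinal GFPdim arrays (adjusted p = 1.08e-06, limma) and did not differ from GFPbright beyond the spread (log2 difference -0.19, adjusted p = 0.775), so that their level goes against that word of the titles. Their labelled level, high, goes with these values. The hair follicle arrays were grouped by tissue, from the source name. Krt14, a keratin of the hair follicle, was at 5549, 3947 and 7179 in hair follicle cells and at no more than 6.4 in the intestinal groups. Alpi, an enterocyte alkaline phosphatase, was at 6804, 7291 and 7127 in villus. Groups were compared with limma, and genes whose p, adjusted over all 17097 genes by Benjamini-Hochberg, was under 0.05 were called. Such p values set a group difference against the spread between these arrays, shared over the 4 groups. The sort codes were not part of this fit.

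**Figure D1:**
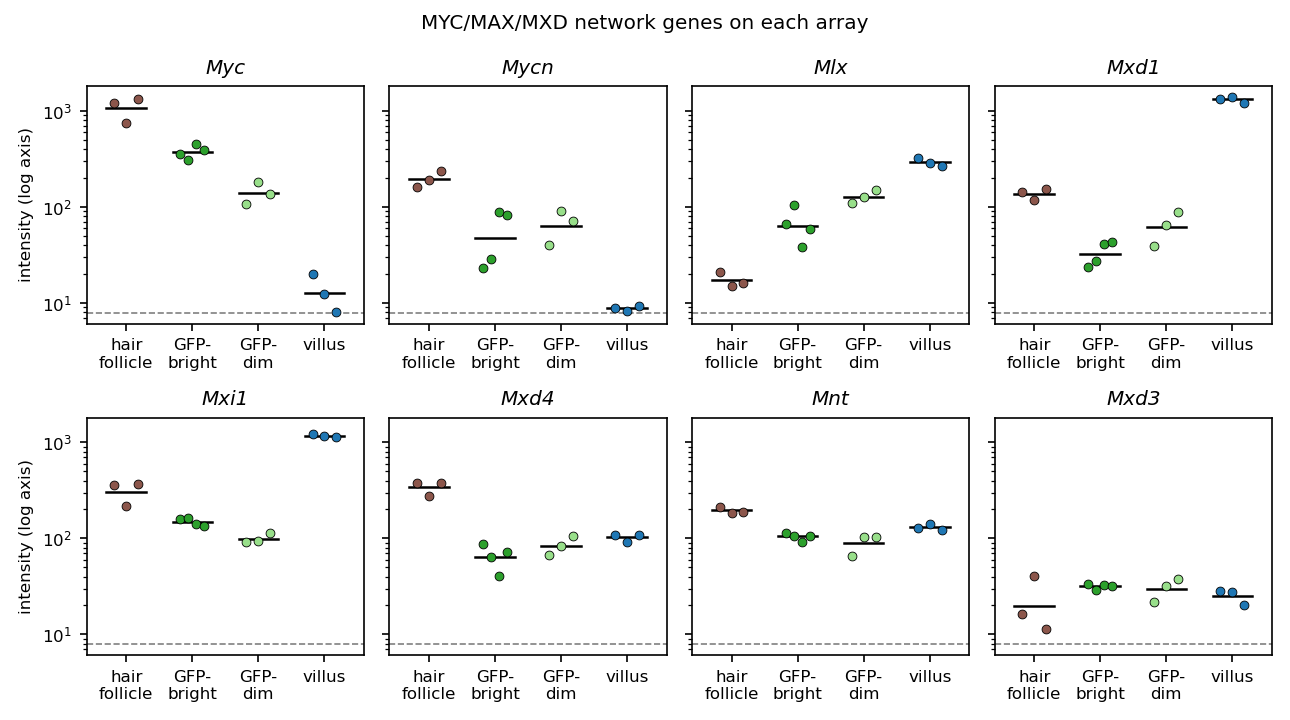
Intensity (log axis) of the 8 measured network genes on each array, with hair follicle, GFPbright, GFPdim and villus groups on the horizontal axis. Points are arrays, bars are the mean of the log2 values, and a dashed line marks the receptor level of 7.9. Myc is lowest on the 3 villus arrays (8.1 to 20), where Mxd1 (1221 to 1402) and Mxi1 (1134 to 1221) are highest. Probe sets of different genes cannot be set against each other in level.

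Along the path of differentiation in the intestine, mRNA of the activator Myc fell in both steps and that of Mycn in the second, while mRNA of the repressors Mxd1 and Mxi1 was far higher in villus than in both crypt populations. Between GFPdim and GFPbright 4 of the 8 genes were called (2 higher, 2 lower), where 16.7% of all genes were called, and 2 to 4 were called when any 1 array was left out. Between villus and GFPdim 6 were called (4 higher, 2 lower), with 42.1% of all genes called. Between villus and GFPbright 6 were called again (4 higher, 2 lower), with 48.9% of all genes called. With 8 genes, these counts are a description beside the shares of all genes.

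Myc (chr15:61985341-61990361, Entrez gene 17869) had an intensity of 353, 304, 452 and 390.4 on the GFPbright arrays, 107, 181 and 136 on the GFPdim arrays and 20, 12.4 and 8.1 on the villus arrays. No array of 1 stage overlapped with those of the next, and the lowest villus array was at the receptor level. Myc was 2.69-fold lower in GFPdim than in GFPbright (log2 difference -1.43, standard error 0.29, adjusted p = 0.0036, limma). Within the 3 sort codes that both populations share the log2 difference was -1.73, -1.32 and -1.52. The lack of overlap had already fixed that direction. In villus Myc was 10.9-fold lower than in GFPdim (log2 difference -3.45, standard error 0.31, adjusted p = 5.25e-07) and 29.4-fold lower than in GFPbright. The second step was the larger on the log2 scale, whereas on the linear scale most of the intensity was lost in the first (means of 375, 141 and 13.5 in the order of the stages). On the log2 scale the difference of the steps, villus minus GFPdim less GFPdim minus GFPbright, was -2.02 (adjusted p = 0.0114), a comparison that was added after the data had been seen. That call was lost without GFPdim 2 (-1.63, adjusted p = 0.0706) and with an offset of 16 added before log2 (-1.08, adjusted p = 0.0953).

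Mycn (chr12:12936093-12941836, Entrez gene 18109), the relative of Myc best known from neural and embryonic tissue, had 23.3, 28.7, 88.8 and 81.4 on the GFPbright arrays, 39.7, 89.6 and 71.8 on the GFPdim arrays and 8.9, 8.2 and 9.3 on the villus arrays. The GFPbright arrays fell into a lower and a higher pair, which the GFPdim arrays overlapped, and the villus arrays were all just above the receptor level. GFPdim did not differ beyond this spread from GFPbright (log2 difference 0.44, standard error 0.42, adjusted p = 0.587), and within the 3 sorts the difference was 0.77, 0.01 and -0.18. Villus was 7.22-fold lower than GFPdim (log2 difference -2.85, standard error 0.45, adjusted p = 1.23e-04), and the 2 steps differed (-3.29 on the log2 scale, adjusted p = 0.00615). Of the other 2 probe sets of Mycn, with group means between 6.15 and 11.5, neither gave this call.

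Mxd1 (chr6:86647044-86669234, Entrez gene 17119), a repressor described in differentiating cells of many tissues, had 23.5, 27.2, 41.1 and 42.7 on the GFPbright arrays, 39.6, 64.9 and 89.5 on the GFPdim arrays and 1336, 1402 and 1221 on the villus arrays. The villus arrays stood far above all others, while the lowest GFPdim array lay among the GFPbright ones. Villus was 21.5-fold higher than GFPdim (log2 difference 4.43, standard error 0.28, adjusted p = 1.70e-08) and 40.5-fold higher than GFPbright (log2 difference 5.34). GFPdim was 1.88-fold higher than GFPbright (log2 difference 0.91, standard error 0.26, adjusted p = 0.0266), and within the 3 sorts the log2 difference was 0.75, 0.66 and 1.07. With the sort as a block the adjusted p was 0.00732, but without a block the call was lost when any of 4 arrays was left out: GFPbright 1 (adjusted p = 0.0793), GFPbright 2 (0.0749), GFPdim 2 (0.0693) and GFPdim 3 (0.137). It was also lost with only the groups compared in the fit (0.0690) and with the methods' t-test (0.223 after Benjamini-Hochberg). The second step exceeded the first by 3.51 on the log2 scale (adjusted p = 9.76e-05). Both other probe sets of Mxd1 were also highest in villus. In both, GFPdim was called higher than GFPbright (log2 differences 1.02 and 0.58, adjusted p = 5.10e-04 and 0.0294, limma).

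Mxi1 (chr19:53310128-53373293, Entrez gene 17859), a repressor of the same family that is also called MXD2, took another course. It had 159, 163, 139.9 and 136 on the GFPbright arrays, 92.3, 93.1 and 113 on the GFPdim arrays and 1221, 1157 and 1134 on the villus arrays. All GFPdim arrays were below all GFPbright arrays, and all villus arrays were far above both. GFPdim was 1.5-fold lower than GFPbright (log2 difference -0.59, standard error 0.17, adjusted p = 0.0305). Within sorts the log2 difference was -0.79, -0.59 and -0.26, in a direction that the lack of overlap had already fixed. Villus was 11.8-fold higher than GFPdim (log2 difference 3.56, standard error 0.18, adjusted p = 2.58e-09). The 2 steps differed by 4.15 on the log2 scale (adjusted p = 6.66e-07). The small first step was not called after quantile normalization (-0.47, adjusted p = 0.0889) or without GFPbright 1 (adjusted p = 0.0771), GFPbright 2 (0.0790), GFPdim 1 (0.1004) or GFPdim 2 (0.0853). The other probe set of Mxi1 had group means of 16.4 in GFPbright, 8.97 in GFPdim and 78.3 in villus, the same order.

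The remaining repressors moved little. Mxd4 (chr5:34176580-34187710, Entrez gene 17122) had 87.1, 64.2, 40.6 and 72.8 on the GFPbright arrays, 66.4, 82.9 and 107 on the GFPdim arrays and 109.5, 90.8 and 109 on the villus arrays. Villus was 1.61-fold higher than GFPbright (log2 difference 0.69, standard error 0.23, adjusted p = 0.0258), but neither step alone was called (adjusted p = 0.315 for GFPdim against GFPbright and 0.401 for villus against GFPdim), and the first call was lost without GFPbright 3 (0.0650), villus 1 (0.0803) or villus 3 (0.0770), with the methods' t-test (0.1143 after Benjamini-Hochberg) and in 2 of the other 3 probe sets (log2 differences 0.34 and 0.19). Mnt (chr11:74830806-74845725, Entrez gene 17428), a repressor found in most tissues, had 115, 107, 91.7 and 107 on the GFPbright arrays, 65.9, 105 and 103 on the GFPdim arrays and 127, 141 and 123 on the villus arrays. It was 1.46-fold higher in villus than in GFPdim (log2 difference 0.55, standard error 0.17, adjusted p = 0.0177), where GFPdim 1 was the low array, and the call was lost without it (log2 difference 0.33, adjusted p = 0.0699) or without villus 2 (0.49, adjusted p = 0.0655), with only the groups compared in the fit (0.0609) and with the methods' t-test (0.1589 after Benjamini-Hochberg). Mxd3 (chr13:55325170-55329900, Entrez gene 17121), which in contrast to its relatives is known from cells in S phase, had 33.6, 29.3, 33 and 32.3 on the GFPbright arrays, 21.5, 32.2 and 38.2 on the GFPdim arrays and 28.1, 27.6 and 20.2 on the villus arrays. None of its comparisons within the intestine was called (villus against GFPbright log2 difference -0.35, standard error 0.33, adjusted p = 0.422), although its 3 villus arrays lay just under the 4 GFPbright arrays.

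Mlx (chr11:101086707-101092207, Entrez gene 21428), the alternative partner, rose in both steps. It had 66.7, 105, 38.6 and 58.3 on the GFPbright arrays, 109, 127 and 149 on the GFPdim arrays and 323, 283 and 269.8 on the villus arrays, and the arrays of the 3 stages did not overlap. GFPdim was 2.02-fold higher than GFPbright (log2 difference 1.02, standard error 0.26, adjusted p = 0.0145) and villus 2.29-fold higher than GFPdim (log2 difference 1.19, standard error 0.27, adjusted p = 0.0026). The difference of the steps was 0.18 on the log2 scale (adjusted p = 0.85), which did not pass the test. Within the 3 sorts the first step was 0.71, 1.72 and 1.35, in a direction that the lack of overlap had already fixed. The call of the first step was lost without GFPdim 3 (adjusted p = 0.0655) and with the methods' t-test (0.169 after Benjamini-Hochberg). It was kept with the sort as a block (1.26, adjusted p = 0.00531, limma) and in the other probe set of Mlx (0.89, adjusted p = 0.00657, limma). In the comparison of the steps 4 of the 8 genes were called (Mxd1 and Mxi1 higher, Myc and Mycn lower), with 23.6% of all genes called.

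Markers of cell types and states changed with the same groups. Of all genes, 16.7% were called between GFPdim and GFPbright and 42.1% between villus and GFPdim. The counts of markers are to be read beside these shares. In GFPdim all 7 enterocyte genes were higher than in GFPbright (summed intensities 6712 to 9593 in GFPdim, 1334 to 2341 in GFPbright), as were 11 of 12 genes of secretory lineages (18190 to 20400 in GFPdim, 1014 to 2051 in GFPbright). Compared with GFPdim, villus had all 7 enterocyte genes higher, but of the 12 secretory genes 1 was higher and 7 were lower. The secretory sums were 13940 to 15840 in villus. All 13 measured proliferation genes were lower in villus than in GFPdim. In GFPdim against GFPbright 1 of them was called, and it was lower, but the median log2 difference of the 13 was -0.82, against -0.04 over all genes. Mki67, a protein of cycling cells, was at 1098, 1090.4, 1035 and 982 in GFPbright, 664, 800.3 and 777 in GFPdim and 11.6, 27 and 24.2 in villus. Of 10 T lymphocyte genes 9 were higher in villus than in GFPdim, with summed intensities of 1748 to 2527 in villus and 55.3 to 73.1 in GFPdim. Cd8b1 and Cd2 were not above the receptor level in villus, and Ptprc, a defining protein of blood cells, was at 188, 167 and 113 there and at no more than 5.3 elsewhere. Of 10 mesenchymal and endothelial genes 4 were higher and 1 was lower in villus than in GFPdim, near the share of all genes. Their summed intensities were 83.7 to 335 in villus and 164 to 232 in GFPdim. Of 11 immediate early and heat shock genes, which cells induce soon after a disturbance, 10 were lower in villus than in GFPdim. Egr1, one of them, was at 82.9, 73 and 74.2 in villus and at 3004, 4045 and 4099.8 in GFPdim. The part of these in the results for Myc, Mxd1, Mxi1 and Mlx was not tested.

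**Figure D2:**
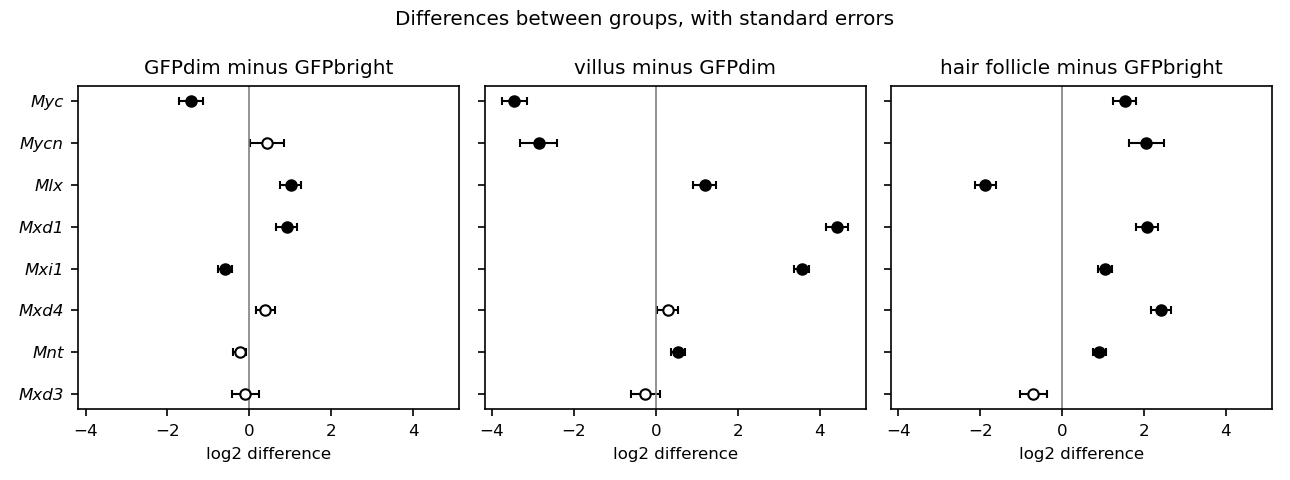
Log2 difference of each network gene between GFPdim and GFPbright, villus and GFPdim, and hair follicle and GFPbright, with the standard error of the limma fit as the bar. Filled points have an adjusted p under 0.05. In the middle panel Mxd1 and Mxi1 stand at 4.43 and 3.56 and Myc and Mycn at -3.45 and -2.85, while in the right panel all 4 are above 0.

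Both activators and the repressors Mxd1, Mxd4, Mxi1 and Mnt were higher in hair follicle cells than in GFPbright, and Mlx was lower. Compared with GFPbright, 7 of the 8 genes were called, 6 higher and 1 lower, with 48.6% of all genes called. Compared with GFPdim the count was also 7 (6 higher, 1 lower), with 46.2% of all genes called. Compared with villus it was 7 (4 higher, 3 lower), with 54.3% of all genes called.

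Myc was at 1218, 754 and 1335 on the hair follicle arrays, above every intestinal array, 2.88-fold over GFPbright (log2 difference 1.53, standard error 0.29, adjusted p = 4.15e-04) and 84.8-fold over villus. Mycn was at 163, 191 and 239, also above every intestinal array (log2 difference 2.06, standard error 0.42, adjusted p = 8.70e-04 against GFPbright). The other probe sets of Mycn gave 0.76 (adjusted p = 0.00558, limma) and -0.31 (adjusted p = 0.0828, limma, not called) there. Mxd1 was at 144, 117 and 152, above all GFPbright and GFPdim arrays and below all villus arrays. It was 4.21-fold higher than in GFPbright (log2 difference 2.07, standard error 0.26, adjusted p = 9.67e-06) and 9.62-fold lower than in villus (log2 difference -3.27). Against GFPbright the other probe sets of Mxd1 gave 2.60, called higher, and 0.31, not called (adjusted p = 0.15, limma). Mxi1 was at 362, 216 and 366, in the same intermediate place, 2.05-fold higher than in GFPbright (adjusted p = 1.35e-04) and 3.83-fold lower than in villus (adjusted p = 4.04e-07).

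Mxd4 was at 377, 274 and 381 in hair follicle cells, above every intestinal array. It was 5.33-fold higher than in GFPbright (log2 difference 2.42, standard error 0.23, adjusted p = 8.09e-07) and 3.31-fold higher than in villus (adjusted p = 3.45e-05). Of its other 3 probe sets, 2 were also highest in hair follicle cells, and the third was not above the receptor level in any group. Mnt was at 215, 186 and 189.9, again above every intestinal array and 1.87-fold higher than in GFPbright (adjusted p = 2.21e-04). The other probe set of Mnt, at 7.21 in hair follicle and 9.01 in villus, was not higher in hair follicle cells. Mlx was at 21.2, 15 and 16, below every intestinal array, 3.66-fold lower than in GFPbright (log2 difference -1.87, standard error 0.26, adjusted p = 2.41e-05) and 16.9-fold lower than in villus (adjusted p = 9.93e-09).

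Mxd3 depended on a single array. It was at 16.2, 40.7 and 11.4 on the hair follicle arrays and was not called against GFPbright (log2 difference -0.71, standard error 0.33, adjusted p = 0.0974). Without hair follicle 2 it was lower than in GFPbright (log2 difference -1.24, adjusted p = 0.000368), GFPdim (-1.13, adjusted p = 0.00119) and villus (-0.88, adjusted p = 0.0061), which made all 8 genes called in each of these comparisons. The same array stood apart in genes of cycling cells. Mki67 was at 57.3, 344 and 15.7 and Top2a, a topoisomerase of dividing cells, at 37.1, 224 and 15.4 on the 3 arrays. By the number in its title, read as a sort code, hair follicle 2 goes with GFPbright 3 and GFPdim 2. Within this code, with 1 array each, no test and values added after the data had been seen, the log2 difference of hair follicle from GFPbright was 0.74 for Myc, 1.10 for Mycn, 1.51 for Mxd1, 2.76 for Mxd4, 0.63 for Mxi1, 1.02 for Mnt, -1.36 for Mlx and 0.30 for Mxd3. The 7 genes called over all arrays had the same direction there and against GFPdim (2.06 for Myc, 0.85 for Mxd1 and -3.08 for Mlx). These arrays are part of the groups compared, which did not overlap for the 7 genes, so the direction was fixed beforehand.

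All 11 immediate early and heat shock genes were higher in hair follicle cells than in each intestinal group, with summed intensities of 47750 to 63290 in hair follicle and 9167 to 17320 in GFPbright. Of all genes, 48.6% were called against GFPbright, 46.2% against GFPdim and 54.3% against villus, and marker counts are to be read beside these shares. Of the melanocyte genes 4 of 6 were higher than in GFPbright, with a summed intensity of 735 to 953 in hair follicle against 47.5 to 68.3 in GFPbright and with Tyr not above the receptor level. The keratinocyte genes were all above that level in hair follicle cells, at 20700 to 25850 in sum, and T lymphocyte genes had a sum of 52.9 to 69. The part of these in the higher Myc and Mxd values was not tested.

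Because each array holds both kinds of gene, the log2 ratio of an activator to a repressor can be followed within an array, relative to its mean over the GFPbright arrays. This gives an unequal change and says nothing on the amounts of the proteins. It reuses the values given above and has no test of its own.

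The ratio of Myc to Mxd1 was 0.40, -0.03, -0.05 and -0.32 on the GFPbright arrays, -2.08, -2.04 and -2.90 on the GFPdim arrays and -9.57, -10.33 and -10.75 on the villus arrays. The 3 stages were separate, and the decline was the steepest of the Myc ratios to the 5 repressors. Hair follicle arrays had -0.43, -0.83 and -0.38, just below the GFPbright arrays, although both genes were higher than there. The ratio of Myc to Mxi1 was -1.11, -0.36 and -1.05 in GFPdim, -7.25, -7.86 and -8.45 in villus and 0.43, 0.49 and 0.55 in hair follicle cells, against -0.17, -0.41, 0.38 and 0.20 in GFPbright.

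The ratio of Myc to Mnt was -4.49, -5.33 and -5.75 in villus, and that to Mxd4 was -4.99, -5.41 and -6.29. On the hair follicle arrays the ratio to Mnt was 0.68, 0.20 and 0.99 and that to Mxd4 -0.85, -1.08 and -0.73. The ratios to Mxd1 and Mxd4 were thus below 0 on all 3 hair follicle arrays, and those to Mxi1 and Mnt above it. The ratio of Myc to Mxd3 was 2.70, 0.68 and 3.34 there, and hair follicle 2 was again the array apart. The ratio of Mycn to Mxd1 was -7.76, -7.94 and -7.56 in villus and -0.35, 0.17 and 0.12 in hair follicle cells, against -0.54, -0.45, 0.58 and 0.40 in GFPbright.

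**Figure D3:**
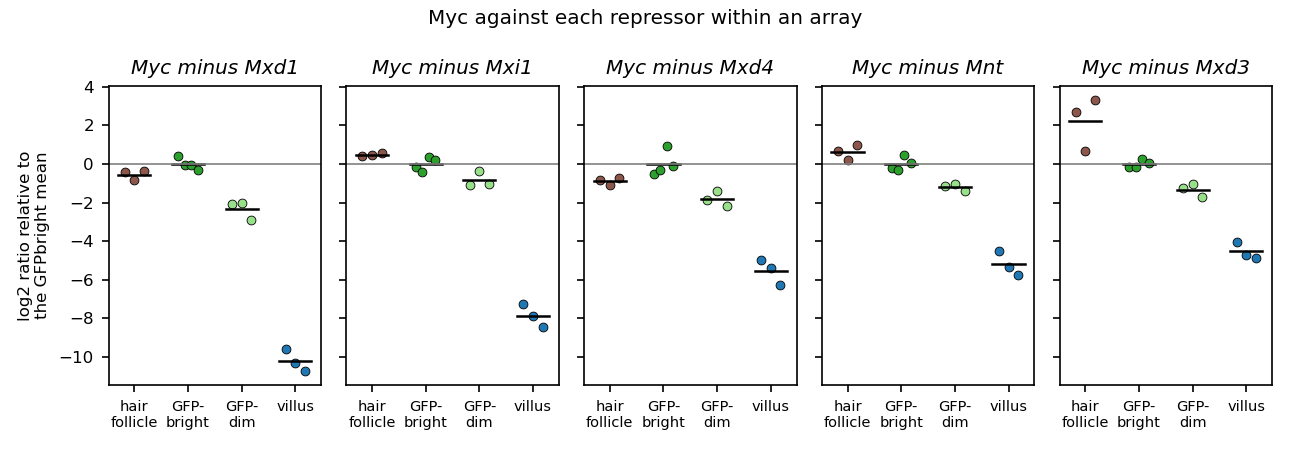
Log2 ratio of Myc to each of 5 repressors on every array, relative to the mean of the GFPbright arrays (line at 0). Points are arrays, bars are group means, and groups are hair follicle, GFPbright, GFPdim and villus. The villus points lie lowest in each panel, down to -10.75 for Myc against Mxd1, while the hair follicle points for Mxd1 lie between -0.83 and -0.38.

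The other measured genes of the network, Mycl, Mga, Mlxip and Mlxipl, were all lower in villus and in hair follicle cells than in GFPbright. Mycl, a further activator of the MYC family, had group means of 158 ± 6.30 (SD, n = 4) in GFPbright, 52.8 ± 13.2 in GFPdim and 9.13 ± 2.55 in villus (SD, n = 3 each). It was lower in GFPdim than in GFPbright (log2 difference -1.61, standard error 0.31, adjusted p = 0.00246) and lower in villus than in GFPdim (log2 difference -2.54, standard error 0.33, adjusted p = 1.89e-05). Hair follicle cells had it at 18.8 ± 10.3 (SD, n = 3), 9.30-fold lower than in GFPbright (adjusted p = 6.31e-07), where Myc and Mycn were higher. Mga, a large repressor that joins MAX, was 2.26-fold lower in GFPdim than in GFPbright (adjusted p = 0.00123) and Mlxip, also called MondoA, 1.94-fold lower (adjusted p = 0.00445).

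Mlxipl, known as ChREBP and active in sugar and fat metabolism of liver and gut, differed most of these 4 between hair follicle cells and GFPbright. It was at 15.7 ± 3.04 in hair follicle cells (SD, n = 3), against 1100.1 ± 149 in GFPbright (SD, n = 4), a log2 difference of -6.14 (adjusted p = 1.48e-12). In villus it was at 694 ± 129 and in GFPdim at 1163 ± 152 (SD, n = 3 each; log2 difference -0.75, standard error 0.18, adjusted p = 0.00408). Its partner Mlx was thus also lowest in hair follicle cells but differed from it in the intestine, where Mlx was highest in villus.

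Of 7 target genes of the MLX partners, 2 were higher and 0 lower in GFPdim than in GFPbright, and 2 were higher and 4 lower in villus than in GFPdim. Pklr, the pyruvate kinase of liver and gut, and Khk, ketohexokinase of fructose breakdown, rose in villus (log2 difference 1.89 and 1.21 against GFPdim), whereas Fasn, Acaca and Acly, enzymes of fatty acid synthesis, fell (-3.24, -1.63 and -1.52). Khk was in hair follicle cells at 38.9 ± 4.07 (SD, n = 3), against 157 ± 24.4 in GFPbright (SD, n = 4; adjusted p = 4.81e-07), and Pklr was not above the receptor level. In that comparison 1 of the 7 genes, Acly, was higher and 3 were lower. Over all genes, 16.7% were called between GFPdim and GFPbright, 42.1% between villus and GFPdim and 48.6% between hair follicle and GFPbright. Counts of this and the next lists are to be read beside these shares, and some were near them.

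Of 27 measured genes that MYC is known to activate, 1 was higher and 22 were lower in villus than in GFPdim, with a median log2 difference of -2.89 against 0.02 over all genes. The largest differences were those of Apex1, a DNA repair enzyme (-4.85), Fbl, the nucleolar methyltransferase fibrillarin (-4.31), and Nolc1 and Nop56, factors of ribosome production (-3.95 and -3.91). Ldha, the lactate dehydrogenase, was the 1 that rose (0.48). In GFPdim against GFPbright 2 were higher and 9 were lower (median -0.47, -0.04 over all genes). They included Cdk4, a kinase of the cell cycle (-0.89), and Nop56 (-0.85), while the translation factor Eif4e (1.02) and Ldha (0.80) were higher.

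In hair follicle cells, where Myc mRNA was highest, 1 of the 27 was higher and 19 were lower than in GFPbright (median -0.78, -0.06 over all genes). Polr1b, a subunit of RNA polymerase I (-2.17), Tfrc, the transferrin receptor (-2.08), and Wdr12, a factor of ribosome production (-1.92), were lower, and Eif4e was higher (2.05). Compared with villus 20 were higher and 2 were lower (median 2.08, -0.04 over all genes), among them Nop56 (4.44) and Fbl (4.14), while Ldha (-2.75) and Nme1, a nucleotide kinase (-0.81), were lower. All 13 proliferation genes were lower in hair follicle cells than in GFPbright, with sums of 2493 to 4610.0 in hair follicle cells and 9677 to 10880 in GFPbright, and the part of this in the list was not tested.

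Of 8 measured genes that MYC is known to repress, 4 were higher and 0 lower in GFPdim than in GFPbright, namely Cdkn2b and Cdkn1a, inhibitors of cell cycle kinases (4.49 and 1.98), Ndrg1 (1.31) and the stress gene Gadd45a (1.07). In villus against GFPdim 2 rose (Cdkn1a 1.38, Cdkn2b 1.05) and 2 fell (Ndrg1 -1.33, Ndrg2 -1.09), with a median of 0.11 against 0.02 over all genes. Of the 8, 7 were higher and 0 lower in hair follicle cells than in GFPbright. Cdkn1a was at 1583, 1076 and 1804 in hair follicle cells, against 51.5, 44.2, 145 and 85.8 in GFPbright, and the groups did not overlap.

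Of 13 measured genes of the SIN3 corepressor complex, through which the MXD proteins act, 0 were higher and 4 lower in GFPdim than in GFPbright, and 2 were higher and 7 lower in villus than in GFPdim (median -0.63, 0.02 over all genes). Rbbp7 and Rbbp4, histone binding subunits (-2.41 and -1.45), the deacetylase Hdac2 (-2.13) and Sap30 (-1.33) were lower in villus, and Brms1 (0.98) and Arid4b (0.80) were higher. Sin3a, the scaffold, was lower in villus than in GFPdim (log2 difference -0.63, standard error 0.19, adjusted p = 0.015), while Sin3b was not called (log2 difference -0.02, standard error 0.19, adjusted p = 0.954). Against GFPbright, hair follicle cells had 5 higher and 3 lower, led by Arid4b (1.98).

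Of 14 cofactors and regulators of MYC turnover, 0 were higher and 4 lower in GFPdim than in GFPbright, and 2 were higher and 9 lower in villus than in GFPdim. Ruvbl2, a helicase of chromatin complexes that join MYC, fell by 3.10 on the log2 scale in villus and Actl6a, an actin-related subunit, also fell (-2.26), while Ruvbl1, Kat2a and Aurka were not above the receptor level there. Pim1, a kinase (1.63), and Bin1, a MYC-binding adaptor (0.90), were higher. In hair follicle cells against GFPbright 4 were higher and 8 lower, with Pim1 (3.17) and Fbxw7, part of the ligase that marks MYC for breakdown (1.05), among the higher ones and Aurka, a mitotic kinase (-3.38), and Skp2, another ligase subunit (-2.91), among the lower ones.

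**Figure D4:**
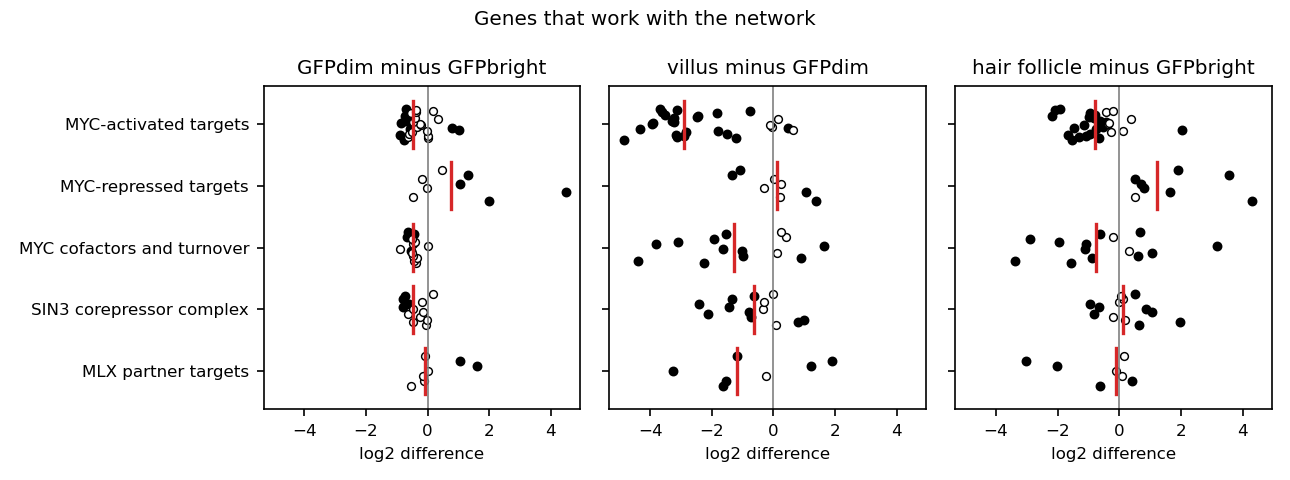
Log2 differences of single genes in 5 lists of genes that work with the network, between GFPdim and GFPbright, villus and GFPdim, and hair follicle and GFPbright. Each point is a gene, filled where the adjusted p is under 0.05, and the red line is the median of the list. In the middle panel the median of the genes activated by MYC is -2.89, and in the right panel it is -0.78.

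The genes whose pattern over the 13 arrays was most like that of Myc were found by the root mean square distance between log2 profiles, each centred on its own mean, among 11926 genes above the receptor level in at least 1 group. They were Sox9 (distance 0.35), Tiam1 (0.41), Notch1 (0.45), Map3k20 (0.49) and Cd44 (0.57), where the profile of Myc itself had an SD of 2.33 on the log2 scale. For Mxd1, with an SD of 2.04, they were Tlcd2 (0.34), Slc6a8 (0.44), Myzap (0.45), Plekhf1 (0.49) and Rhoc (0.50). The arrays share their groups, so this is a description of likeness in 4 groups and carries no test.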

How the data were processed

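RNA of the 13 samples was hybridized to 1 array each. The deposited intensity values are on a linear scale. The authors made them with RMA-sketch (Affymetrix Power Tools, version not given in the sources used here), which subtracts background, normalizes the arrays together and summarizes each probe set. Differences near background can be understated by such values. The values were taken to log2 with no offset. Of 45141 probe sets, 28898 name 1 gene, 551 name several and 15692 are unnamed in the annotation table used here. Identifiers of 28689 were found in a RefSeq table (GRCm38.p6). A gene with several probe sets was represented by the one with the highest mean, which gave 17097 genes.

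The 4 groups were fitted together with limma 3.58.1 in R 4.3.3, with Benjamini-Hochberg adjustment over all genes. The analysis was tested on simulated data. The members and gene lists were chosen with earlier results of these data known. Named genes were all members, up to 4 genes of a list with the largest called difference, up to 2 called against the others, the 5 nearest profiles of Myc and Mxd1, and Lgr5. Markers named one by one beside them, further genes that were not above the receptor level, and Sin3a and Sin3b were added after their values had been seen.

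Titles of 3 GFPbright and 3 GFPdim arrays share a number in pairs, and hair follicle 2 has the number of GFPbright 3 and GFPdim 2. That this number is the code of a sort was assumed. The hair follicle comparisons were fitted without this code, since the other 2 hair follicle arrays have codes of their own. Residuals from the group means correlated within the 3 sorts (0.291, 0.451 and 0.320), the codes were taken to pair these arrays, and a fit with sort as the block was made too. Alternatives covered the normalization, an offset of 16, a filter at the receptor level, the samples in the fit, the prior of limma, the methods' t-test, other probe sets and leaving out each array. Python 3.11.15 with matplotlib 3.10.9 drew the figures.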

Additional observations from a re-analysis of the deposited data

How the results depend on the processing

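Normalization, the offset, the filter, the fit and the t-test left 426 of 448 differences of single network genes with the same direction and side of the threshold, leaving out an array left 365 of 392, and another probe set 57 of 84. Genes called between GFPdim and GFPbright numbered 2853, of which 37.9% were higher, against 51.2% after quantile normalization and 53.2% without GFPdim 1, the array with the lowest 75th percentile (37.6). With the methods' t-test and Benjamini-Hochberg adjustment 1595 were called. At its unadjusted threshold of 0.01, 4795 genes were called between villus and GFPdim and 4750 between hair follicle and GFPdim. Of the 4 network genes called between GFPdim and GFPbright, 2 (Myc and Mxi1) were called by the t-test with either threshold, and 2 to 4 when an array was left out. With the t-test at 0.01, unadjusted, Mycn also lost its call for hair follicle against GFPbright and GFPdim and Mxd1 that for hair follicle against GFPdim. With the sort as a replicate block on 6 arrays 4 were called, and 3067 genes, against 3 and 2147 on the same arrays without a block, a fit added after the data were seen, where Mxd1 lost its call (adjusted p = 0.1645). Centring the arrays on their medians moved differences of hair follicle from GFPdim by -0.11 on the log2 scale and the other comparisons by less.

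With other settings or an array left out, log2 differences turned in sign only where none was called. Other probe sets also turned called ones, of Mycn, Mxd1 and Mnt. For GFPdim minus GFPbright, Mxd3 was 0.067 after quantile normalization and from -0.283 to 0.132 when an array was left out (the higher without GFPdim 1). For hair follicle minus villus, Mxd3 was between -0.881 and 0.037 with an array left out (the higher without hair follicle 3). For the difference of the steps, Mlx was -0.138 after quantile normalization and -0.067 to 0.412 with an array left out, Mxd4 was -0.436 to 0.25 and Mxd3 -0.619 to 0.21. Other probe sets gave -0.02 (GFPdim minus GFPbright), -0.131 (villus minus GFPdim) and 0.229 (difference of the steps) for Mxd4, 0.005 (villus minus GFPdim), 0.105 and 0.758 (difference of the steps) for Mxd3, and -0.275 (hair follicle minus GFPdim) for Mxd1. A probe set of Mycn with group means of 8.81 to 11.5 gave -0.027 for GFPdim minus GFPbright, 0.097 for villus minus GFPdim, 0.07 for villus minus GFPbright, -0.312 for hair follicle minus GFPbright, -0.284 for hair follicle minus GFPdim and 0.124 for the difference of the steps. It was called in the opposite direction for hair follicle minus villus (-0.381, adjusted p = 0.0426), as was a probe set of Mnt (-0.321, adjusted p = 0.0401). The cause was not tested. Probe sets close to the receptor level limit what these can show.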

Other observations

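Compared with GFPdim, hair follicle cells had 2 higher and 9 lower genes among the 27 activated by MYC, 6 higher and 1 lower among the 8 repressed by MYC, and 6 higher and 0 lower among the 13 of the SIN3 complex. Cdkn2b, an inhibitor of cell cycle kinases, was the lower one of the repressed genes, with a log2 difference of -2.83. Compared with villus, 11 of the 13 SIN3 genes and 11 of 14 cofactors were higher in hair follicle cells and 1 of each was lower, Brms1 (-0.77) and Bin1 (-1.43). Of all genes, 46.2% were called between hair follicle and GFPdim and 54.3% between hair follicle and villus.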
